A study of Homo sapiens with 10 samples.

Results

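The genes described are the matrix metalloproteases (MMPs), the ADAM and ADAMTS proteases with their ADAMTS-like relatives, and the tissue inhibitors of metalloproteases (TIMPs), followed through the hepatic differentiation of human embryonic stem cells. They were taken by name alone, as every gene of the deposited RNA-seq table whose symbol begins with MMP, TIMP or ADAM and a digit, or with ADAMTS. This gave 45 of the 12125 genes in the table. RefSeq lists 73 protein-coding genes with such symbols, of which these 45 were among them, and the rest were not analysed here. By known function the 45 comprise 5 secreted MMPs, 6 membrane-anchored MMPs, 9 ADAMs with a metalloprotease site, 2 ADAMs without one, 6 ADAMTS proteoglycanases, 10 other ADAMTS proteases, 3 ADAMTS-like proteins and 4 TIMPs.

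The cells were H1, an established human embryonic stem cell line, and 1 library was made on each of 10 days. Day 0 cells were undifferentiated and untreated. Cells of days 1, 2 and 3 were in Activin A at 100 ng per ml, those of days 5 and 7 in BMP2 at 20 and FGF4 at 30 ng per ml, and those of days 9, 11 and 13 in HGF and KGF at 20 ng per ml each. Day 21 cells were in Oncostatin M (OSM) at 20 ng per ml. The treatment label of the day 13 library reads OSM, whereas the lengths of the media in the protocol make day 13 the last day of HGF and KGF, and the protocol was followed here. The labels name the cells as presumed definitive endoderm up to day 3, presumed hepatoblasts up to day 11 and presumed hepatocyte-like cells from day 13. All libraries share the 1 cell line, and none comes from a parallel culture or from cells kept without the factors, so day, medium and library cannot be told apart.

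Metalloproteases carry a zinc ion in the active site and are made as inactive precursors. MMPs cut collagens, laminins and other matrix proteins, secreted ones in the surrounding space and membrane-anchored ones at the cell surface. ADAMs mostly release the outer parts of membrane proteins such as growth factors and Notch, whereas the secreted ADAMTS proteases trim proteoglycans, procollagens and von Willebrand factor. TIMPs bind the active sites and hold these enzymes in check, and in liver the balance between MMPs and TIMPs is best known from the turnover of scar tissue.

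The values are whole-number scores, normalized by the authors for GC content, and not read counts. Library totals lay between 2330948 and 2362740 and library medians between 81 and 82, so the depth of a library cannot be read from them. Every gene of the table had a value of at least 26 on at least 2 days, and every member of at least 26, so the table holds only genes that passed such a level. The libraries hold nearly the same set of values, so a value gives a gene's place among the genes of its library. The highest value of a member, 1886, for one, was held by 2 genes in each library, and 1214 by 7. With 1 library per day there was no replicate check, no test and no p-value, and every difference below compares 2 libraries. Differences are given on the log2(value + 1) scale, which understates the change of low genes. A gene was counted as higher or lower when this difference was at least 2, which is about 4-fold, and the larger of the 2 values was at least 50. Days 9 and 11 share a medium and, of the pairs of successive days, had the fewest genes counted, so they give a low measure of how far libraries lay apart. The standard deviation of their log2 differences was 1.10 over genes with a mean value under 20, 0.49 from 20 to 50, 0.36 from 50 to 200 and 0.28 from 200 to 2000. Over the same pair the members differed by -2.58 (MMP25, from 5 to 0) to 1.31 (ADAM12, from 30 to 76), and 30 of the 45 differed by less than 0.5. Of the 29 members tested 0 were counted, against 0.107% of all genes higher and 0.107% lower. In bulk RNA, a change in the number of cells of a type and a change in RNA per cell cannot be told apart.

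The labelled cell types were compared with their markers, and day 1 held some of those of its label and lacked others. The sum over 4 pluripotency genes on days 0, 1, 3 and 21 was 8663, 10012, 4619 and 42. At day 1, labelled as presumed early definitive endoderm, SOX17 was at 2 and CXCR4 at 0, while CER1 was at 1638 and GSC at 202. At day 3 SOX17 was at 790 and CXCR4 at 568, and CER1 stood at the top of the scale (18734). The sum over 7 hepatoblast and hepatocyte genes was 30070 at day 7 and 67130 at day 21. Much of it came from genes at the top of the scale, AFP on both days and TTR and SERPINA1 at day 21. ALB had 65, 168 and 4866 on days 7, 13 and 21. On days 7 and 21 APOA2 had 1886 and 2164, APOA1 4855 and 3428 and HNF4A 1044 and 470. Genes of other cell types were present too. All 11 fibroblast and stromal markers were in the table and on days 3, 7, 13 and 21 summed to 2172, 5376, 39491 and 42127. Of the last 2 sums COL1A2 alone made 18734 each. The 6 of 7 endothelial markers that were in the table summed to 428, 2130 and 1448 on days 7, 13 and 21. Only 4 of 16 macrophage markers were in the table, with sums of 148 and 446 on days 13 and 21.

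The upstream sequences of 4 members are shown because these genes were among those counted in the media steps described below: MMP14 and ADAM19 in Activin A, ADAMTS12 in FGF4 and BMP2, and TIMP3, the one inhibitor counted, in HGF and KGF. Each is the run of 250 bases before the start of the gene in RefSeq (GRCh38.p14), written on the strand of the gene, at chr14:22836335-22836584 (+) for MMP14, chr5:157575776-157576025 (-) for ADAM19, chr5:33891991-33892240 (-) for ADAMTS12 and chr22:32801455-32801704 (+) for TIMP3. Capitals mark matches to TGANTCA, a looser form of the AP-1 motif that allows any base at its centre.
MMP14: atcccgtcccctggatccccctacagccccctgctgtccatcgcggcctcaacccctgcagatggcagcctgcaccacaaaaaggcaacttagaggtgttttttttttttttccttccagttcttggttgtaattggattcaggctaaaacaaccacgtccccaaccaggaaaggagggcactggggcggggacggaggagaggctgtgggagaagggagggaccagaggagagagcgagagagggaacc
ADAM19: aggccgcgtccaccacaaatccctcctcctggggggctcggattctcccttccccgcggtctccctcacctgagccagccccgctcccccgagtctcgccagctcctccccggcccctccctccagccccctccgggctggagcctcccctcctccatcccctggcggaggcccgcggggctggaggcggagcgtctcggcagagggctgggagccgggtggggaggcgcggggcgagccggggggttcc
ADAMTS12: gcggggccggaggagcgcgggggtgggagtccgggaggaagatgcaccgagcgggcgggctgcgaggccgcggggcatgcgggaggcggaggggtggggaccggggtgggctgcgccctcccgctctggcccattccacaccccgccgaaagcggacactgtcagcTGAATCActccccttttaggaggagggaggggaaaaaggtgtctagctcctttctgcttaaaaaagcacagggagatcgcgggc
TIMP3: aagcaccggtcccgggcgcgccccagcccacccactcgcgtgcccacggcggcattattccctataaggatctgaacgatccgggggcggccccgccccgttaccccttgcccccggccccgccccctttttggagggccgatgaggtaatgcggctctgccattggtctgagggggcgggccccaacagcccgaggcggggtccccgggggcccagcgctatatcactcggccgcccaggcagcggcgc
A promoter window of 250 bases before and 50 after the start was found for 28 of the 45 members, in 29 windows. TGANTCA, searched on both strands, occurred in 1 of the 29, that of ADAMTS12, where it began 84 bases before the start (-84). The match, TGAATCA, meets this looser form but not the usual, stricter AP-1 site. TGANTCA, with any base at its centre, occurred in 7.71% of the 35116 windows of all genes. The median GC content of the 250 bases was 73.6% for the windows of members and 58.0% for all windows, with 56.8% for MMP14, 76.4% for ADAM19, 68.4% for ADAMTS12 and 72.4% for TIMP3. These letters are a description of the sequence and were not tied to a factor.

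From day 0 to day 21 more members were higher than lower. Of the 37 members that reached 50 on either day, 18 were counted as higher (48.6%) and 4 as lower (10.8%). Among all 9698 genes tested, 11.9% were higher and 11.5% were lower. The median log2 difference of the 45 members was 1.02, against -0.12 over all genes. By sign alone, 27 of the 45 had a larger value at day 21 (60.0%, against 45.5% of all genes) and 18 a smaller one. This comparison of the first with the last library was added after the data had been seen. The higher members were MMP2 and MMP14, the ADAMs 9, 12, 28 and 33, ADAMTS1, ADAMTS2, ADAMTS6, ADAMTS9, ADAMTS10, ADAMTS12, ADAMTS13 and ADAMTS15, ADAMTSL4 and ADAMTSL5, and the inhibitors TIMP1 and TIMP3. The lower ones were MMP17, MMP25, ADAMTS3 and ADAMTS19. Of the 6 proteoglycanases 3 were higher and 0 lower, of the 10 other ADAMTS proteases 5 were higher and 2 lower, and of the 6 membrane-anchored MMPs 1 was higher and 2 were lower.

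**Figure D1:**
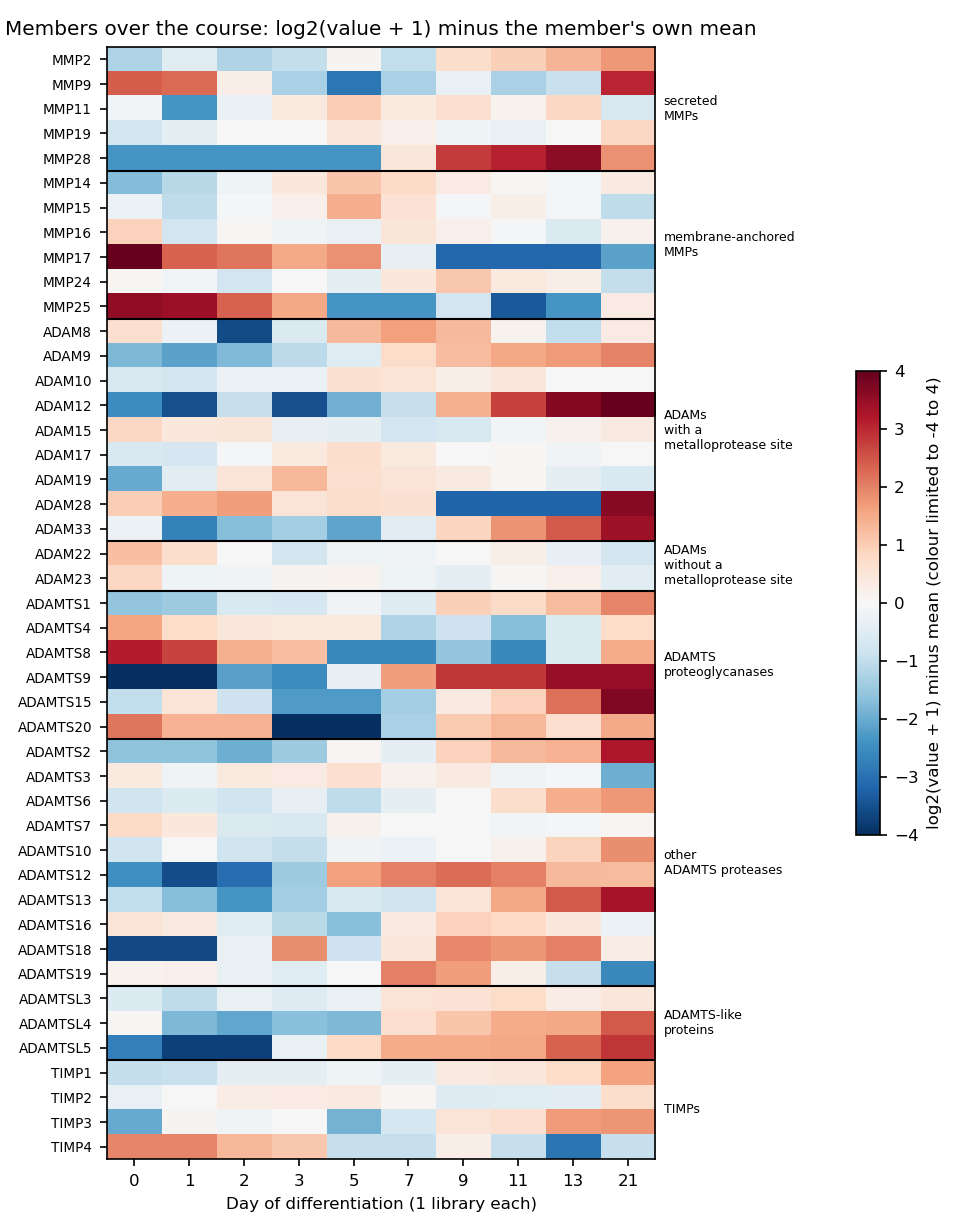
Heat map of the 45 members (rows, grouped by kind) over the 10 days (columns, 1 library each), coloured by log2(value + 1) minus the member's own mean and limited to -4 to 4. Many ADAM, ADAMTS and TIMP rows turn red to the right, with 19 members highest at day 21, while MMP17 and MMP25 are red on the left.

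The day of the highest value was also late for many members. It was day 21 for 19 of the 45 (42.2%), against 18.6% of all genes, and day 0 for 10 (22.2%), against 15.6%. Day 5 held the highest value of 6 members (13.3%, against 8.54% of all genes). Days 1 and 2 were the single highest day of 0 members, against 13.6% and 8.02% of all genes. Genes with their highest value on more than 1 day were left out of these counts but not of the totals, which concerned TIMP4 (28 on days 0 and 1) and 499 of all genes. Among the groups, 3 of the 4 TIMPs, 3 of the 5 secreted MMPs and 4 of the 9 ADAMs with a metalloprotease site were highest at day 21. Among the 6 membrane-anchored MMPs 0 were highest at day 21 and 3 at day 0.

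Along the 4 media steps, 17 members were counted at least once and 28 were not. In Activin A, from day 0 to day 3, 2 of the 24 members tested were higher (8.33%, against 3.94% of all genes) and 2 were lower (8.33%, against 2.16%). In FGF4 and BMP2, from day 3 to day 7, 4 of 20 were higher (20.0%, against 5.63%) and 0 were lower (against 4.41%). In HGF and KGF, from day 7 to day 13, 7 of 30 were higher (23.3%, against 3.08%) and 1 was lower (3.33%, against 2.46%). In OSM, from day 13 to day 21, 2 of 33 were higher (6.06%, against 2.28%) and 0 were lower (against 1.62%). The largest shares above the background were thus those of the higher members in the middle steps, whereas counts of 1 or 2 members, as in the first and last steps, are too few to set against it. The median log2 difference of all 45 members was -0.10, 0.37, 0.42 and 0.43 over the 4 steps in this order, and that of all genes was -0.04, -0.03, -0.04 and -0.10. Some members came near the limit without being counted, among them TIMP3 (1.99), MMP25 (-1.99), ADAM22 (-1.93) and ADAMTS8 (-1.92) from day 0 to day 3, and ADAM12 (1.84) and ADAMTS2 (1.83) from day 13 to day 21.

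Membrane-anchored MMPs were counted in both directions over the first days. MMP14 (MT1-MMP, ENSG00000157227, chromosome 14), which cuts fibrillar collagen at the cell surface and activates the precursor of MMP2, had values of 262, 402, 779 and 1156 at days 0, 1, 2 and 3. It reached 1886 at day 5 and was 1488, 1087, 918, 838 and 1129 at days 7, 9, 11, 13 and 21. Its value was thus higher on each successive day up to day 5, and the difference from day 0 to day 3 was 2.14 on the log2 scale, a ratio of 4.41. It did not return to the level of day 0 on any later day. MMP15 (MT2-MMP), a close relative, had 276, 161, 309, 372, 902, 482, 308, 383, 318 and 160 over the 10 days. It shared the maximum at day 5 with MMP14, but was below its day 0 value at days 1 and 21 and was counted over no step.

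MMP17 and MMP25, which are held in the membrane by a lipid anchor, went the other way. MMP17 (ENSG00000198598, chromosome 12) had 148 at day 0 and 44, 38 and 24 at days 1, 2 and 3. It had 30 and 6 at days 5 and 7, was listed at 0 at days 9, 11 and 13 and was at 1 at day 21. The main drop thus lay in the first day of Activin A, and the log2 difference over the Activin A step was -2.58. MMP25 (ENSG00000008516, chromosome 16) had 118, 109, 52 and 29 at days 0 to 3, between 0 and 5 from day 5 to day 13, and 12 at day 21. It fell short of the limit in the Activin A step (-1.99) but was lower at day 21 than at day 0 by a log2 difference of -3.19. Its interval shares 7373 bases with RP11-473M20.7 on the opposite strand, whose value stayed between 6 and 36. The library kit named in the methods of the study does not mark strand, so reads of such a pair cannot be told apart where they overlap. MMP16, a further membrane-anchored member, was highest at day 0 (198) and lay between 61 and 146 afterwards, and MMP24 never went above 60.

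ADAM19 (meltrin beta, ENSG00000135074, chromosome 5), an ADAM known from heart and nerve development that can release neuregulins, was the other member counted as higher in Activin A. Its values were 109, 322, 628 and 1109 at days 0, 1, 2 and 3. They were 686, 629, 568, 460, 341 and 285 from day 5 to day 21. The day 3 value was 10.2 times that of day 0, a log2 difference of 3.33, and each later library was lower than the one before it. It is the only member with its highest value at day 3. ADAMTS20, a proteoglycanase, had 74, 44 and 44 at days 0, 1 and 2, was listed at 0 at days 3 and 5 and lay between 6 and 48 afterwards. It was counted as lower from day 0 to day 3. Its later values, under 50, lie in the range where libraries in the same medium differ most.

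**Figure D2:**
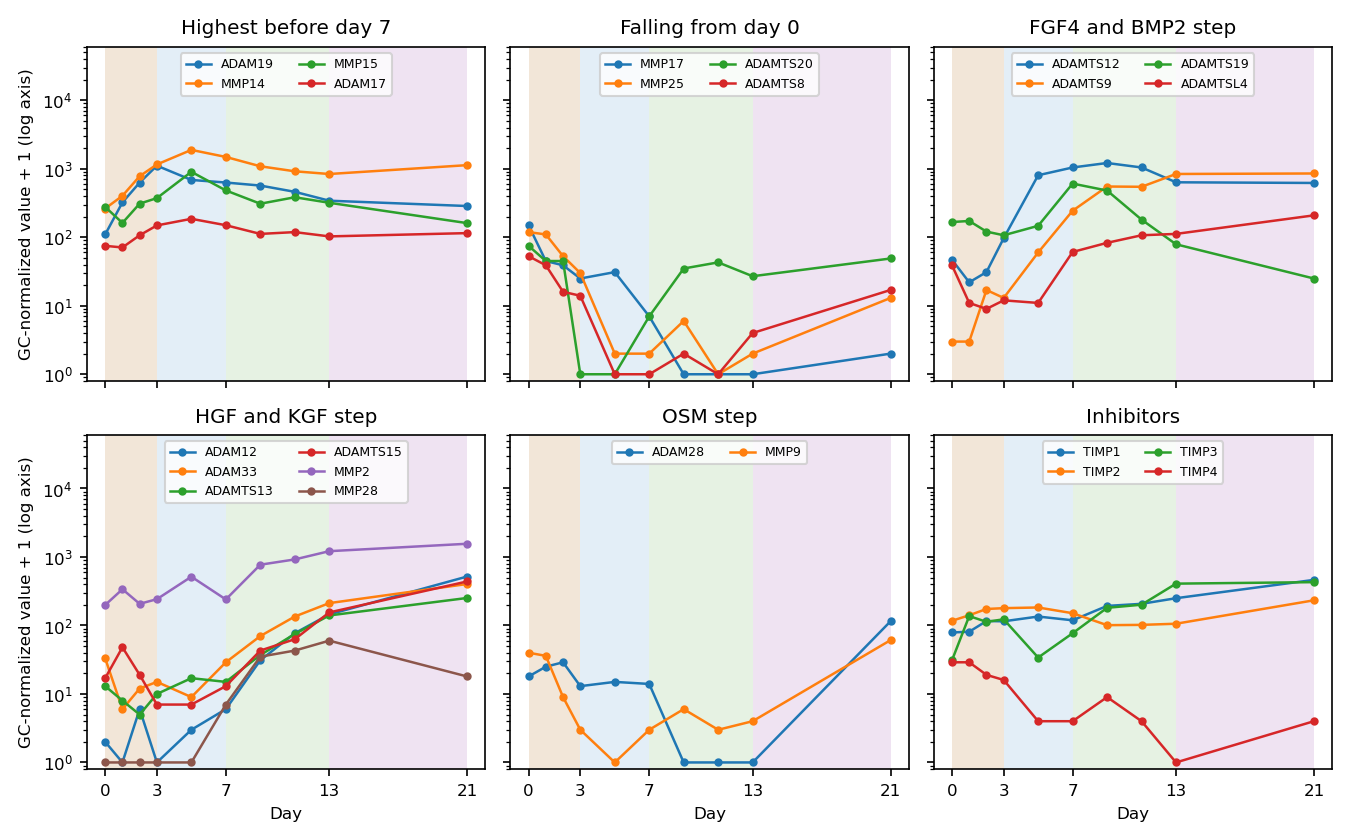
Values of 24 members by day, plotted as value + 1 on a log axis, with 1 point per library and background bands for Activin A (days 0 to 3), FGF4 and BMP2 (3 to 7), HGF and KGF (7 to 13) and OSM (13 to 21). ADAM19 peaks at day 3 and MMP14 at day 5, ADAMTS12 steps up between days 3 and 5, and ADAM12, ADAM33, ADAMTS13 and ADAMTS15 are higher on each day from day 7 to day 21.

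All 4 members counted as higher in FGF4 and BMP2 belong to the ADAMTS group. ADAMTS12 (ENSG00000151388, chromosome 5), which degrades cartilage oligomeric matrix protein, had 46, 21, 30 and 96 at days 0 to 3 and 804 at day 5. It then had 1044, 1214, 1044, 634 and 620 at days 7, 9, 11, 13 and 21. Most of the difference thus lay between days 3 and 5, the first interval after Activin A, and over the step it was 3.43 on the log2 scale. Of the 28 members with a promoter window, ADAMTS12 was the only one with a match to TGANTCA, which 7.71% of all windows held. A tie between the match and these values was not tested. ADAMTS9 (ENSG00000163638, chromosome 3), which cuts versican and aggrecan, had 2, 2, 16 and 12 at days 0 to 3. It had 59, 243, 550, 545, 839 and 853 at days 5, 7, 9, 11, 13 and 21. It was higher by more than 4-fold in both intervals of the step, from day 3 to 5 and from day 5 to 7, and was the only member of which this was so. Of all genes tested, 2.85% were higher in the first of these intervals and 2.25% in the second. Its log2 difference over the step was 4.23, the largest of any member counted in that step.

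ADAMTS19 (ENSG00000145808, chromosome 5), whose substrates are little known, was the only member counted in 2 steps. Its values were 166, 172, 120, 106 and 146 at days 0, 1, 2, 3 and 5. They were 607, 480, 180, 78 and 24 at days 7, 9, 11, 13 and 21. The value thus stood high at days 7 and 9 only, with log2 differences of 2.51 from day 3 to day 7 and -2.94 from day 7 to day 13. Between days 9 and 11, where no member was counted, its difference was -1.41. ADAMTSL4 (ENSG00000143382, chromosome 1), which has no protease domain and binds microfibrils, had 38 at day 0, between 8 and 11 from day 1 to day 5, and 60 at day 7. It went on to 82, 106, 111 and 208 at days 9, 11, 13 and 21. Its day 7 value was 5.45 times that of day 3, a log2 difference of 2.35, starting from a value of 11.

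The HGF and KGF step held the most counted members. MMP2 (gelatinase A, ENSG00000087245, chromosome 16), a secreted enzyme that cuts basement membrane collagen, had 198, 337, 206 and 241 at days 0 to 3 and 514 and 239 at days 5 and 7. It had 770, 920 and 1214 at days 9, 11 and 13 and 1558 at day 21. The values of days 9 to 21 all lay above those of days 0 to 7, with a log2 difference of 2.34 over the step, of which 1.68 lay between days 7 and 9. MMP28 (epilysin) was listed at 0 from day 0 to day 5, and had 6, 34, 42, 59 and 17 at days 7, 9, 11, 13 and 21. It passed 50 at day 13 alone and was less than 20 again at day 21.

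ADAM12 and ADAM33, related ADAMs known from mesenchymal cells, were both counted. ADAM12 (ENSG00000148848, chromosome 10) had values between 0 and 5 from day 0 to day 7. It had 30, 76, 144 and 517 at days 9, 11, 13 and 21. ADAM33 (ENSG00000149451, chromosome 20) had 32 at day 0, between 5 and 14 from day 1 to day 5, and 28, 69, 134, 211 and 402 from day 7 to day 21. Both were higher in each library after day 7 than in the one before it, with log2 differences over the step of 4.59 for ADAM12 and 2.87 for ADAM33. ADAM9, an ADAM made by many cell types, was counted over no step. Its values on days 0, 3, 7, 13 and 21 were nevertheless 76, 128, 444, 874 and 1066, a ratio of 14.0 over the course.

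ADAMTS13, ADAMTS15 and TIMP3 were also counted from day 7 to day 13. ADAMTS13 (ENSG00000160323, chromosome 9), the protease that cuts von Willebrand factor and is known to be made in liver, had between 4 and 16 from day 0 to day 7 and then 36, 74, 139 and 251 at days 9, 11, 13 and 21. Its interval shares 3442 bases with REXO4 on the opposite strand, whose value lay between 74 and 136 throughout. Its substrate VWF had 309, 31, 38 and 12 on days 3, 7, 13 and 21. ADAMTS15, a proteoglycanase, had 16, 47, 18, 6, 6 and 12 from day 0 to day 7 and 42, 62, 154 and 438 afterwards, a log2 difference of 3.58 over the step. ADAMTS15 and ADAMTS8 lie next to each other on opposite strands of chromosome 11, with 36860 bases between them in the table. ADAMTS8, another proteoglycanase, was highest at day 0 (52), was at 0 to 3 from day 5 to day 13 and at 16 at day 21.

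Of the proteases that shape collagen and microfibrils, ADAMTS2, which removes the end of procollagen, had 13, 13, 10 and 15 at days 0 to 3. It had 44, 32, 80, 104, 112 and 402 from day 5 to day 21, 30.9 times its first value. ADAMTS3, which does the same to other procollagens, was between 34 and 61 up to day 13 and at 9 at day 21. ADAMTS6 and ADAMTS10, a related pair linked to fibrillin, went from 28 to 167 and from 20 to 130 between days 0 and 21. ADAMTS1, a proteoglycanase, had 70, 134, 149, 514 and 826 on days 0, 3, 7, 13 and 21. ADAMTSL5, an ADAMTS-like protein without a protease domain, had at most 1 up to day 2 and 10, 22, 36, 36, 38, 68 and 96 afterwards. None of these 6 passed the limit in a single step with a value of at least 50.

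**Figure D3:**
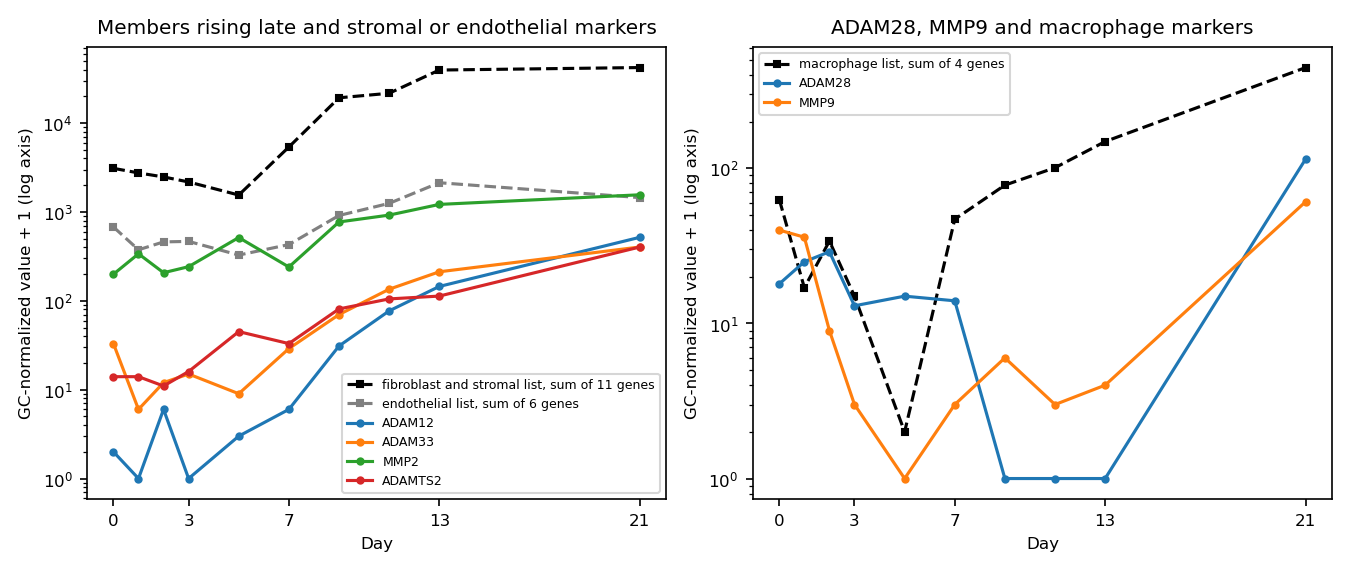
Values (plus 1, log axis) by day, 1 library each, for members set beside summed marker lists (dashed). Left, ADAM12, ADAM33, MMP2 and ADAMTS2 with 11 stromal and 6 endothelial genes, and right, ADAM28 and MMP9 with 4 macrophage genes, whose sum is 446 at day 21.

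The stromal list rose with these late members from day 7 to day 13, and before that in part with the earlier ADAMTS members. From day 3 to day 7, 5 of its 9 genes tested were higher and 2 lower (against 5.63% and 4.41% of all genes). From day 7 to day 13, 5 of its 10 genes tested were higher and 0 lower (against 3.08% and 2.46% of all genes). Its sum went from 5376 to 39491. LUM had 145 and 4866, DCN 9 and 2802, and PDGFRB 42 and 290. From day 13 to day 21, 0 of its genes were counted. The 7 members higher from day 7 to day 13 were not counted either, but all except MMP28 had a larger value at day 21. On days 13 and 21 ADAM12 had 144 and 517, ADAM33 211 and 402, ADAMTS13 139 and 251 and ADAMTS15 154 and 438. MMP2 had 1214 and 1558, TIMP3 407 and 428 and MMP28 59 and 17. Over the same step 4 of the 11 stromal genes had a larger value at day 21, 4 a smaller one and 3 the same. PDGFRB had 290 and 518, PDGFRA 333 and 695, POSTN 1252 and 2170 and COL1A1 3861 and 6494. TAGLN had 628 and 206, ACTA2 203 and 126, LUM 4866 and 3868 and THY1 20 and 12. COL1A2 was at the top of the scale (18734) on both days. Of the endothelial list, 2 of 5 genes tested were higher from day 7 to day 13 (CDH5 and TEK), against 3.08% of all genes. The hepatoblast and hepatocyte list also held higher genes. Of its 7 genes tested, 2 were higher and 0 lower from day 7 to day 13 (TTR and SERPINA1), against 3.08% and 2.46% of all genes. From day 13 to day 21, 2 were higher (ALB and SERPINA1) and 0 lower, against 2.28% and 1.62%. Whether stromal, endothelial or hepatic cells supplied the transcripts of these members was not tested.

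ADAM28 and MMP9 were the 2 members counted as higher in OSM, of 33 tested (6.06%, against 2.28% of all genes). ADAM28 (ENSG00000042980, chromosome 8), an ADAM known from lymphocytes and epithelia, had 17, 24, 28, 12, 14 and 13 from day 0 to day 7. It was listed at 0 at days 9, 11 and 13 and was at 114 at day 21. MMP9 (gelatinase B, ENSG00000100985, chromosome 20), known from neutrophils and macrophages, had 39 and 35 at days 0 and 1 and between 0 and 8 from day 2 to day 13. It was at 60 at day 21, 20 times its day 13 value, a log2 difference of 3.93. Both genes were thus low or at 0 before OSM, and MMP9 at day 21 was only 1.54 times its value at day 0. Among the 4 macrophage markers in the table, PTPRC had 0 and 65 on days 13 and 21, CD68 had 50 and 259, LAPTM5 33 and 92, and MSR1 65 and 30. At day 0, where MMP9 was at 39, PTPRC was at 39 and CD68 at 0. The other markers of that list were not analysed here. The part of macrophages in the values of ADAM28 and MMP9 was not tested.

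The 4 inhibitors followed different courses. TIMP3 (ENSG00000100234, chromosome 22), which binds to matrix and also inhibits ADAM17 and ADAMTS proteases, had 30 at day 0 and 136, 112 and 122 at days 1 to 3. It had 33 at day 5, 76 at day 7, and 180, 200, 407 and 428 at days 9, 11, 13 and 21. It thus moved up, down and up again, with the first change within 1 day of Activin A. Between days 0 and 1 it was the only member counted, while 1.02% of all genes tested were higher and 0.81% lower. TIMP1 (ENSG00000102265, chromosome X), the inhibitor of most secreted MMPs, had 78, 80, 115 and 114 at days 0 to 3. It had 134, 118, 192, 206, 249 and 462 from day 5 to day 21, 5.92 times its first value, although it was counted over no single step. All 4477 bases of its interval lie within SYN1 on the opposite strand, which had at most 51.

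TIMP2 (ENSG00000035862, chromosome 17), which links MMP14 to the precursor of MMP2 as well as inhibiting both, stayed between 100 and 232 throughout. It had 116, 140, 173, 178 and 182 up to day 5 and 150, 100, 101, 105 and 232 from day 7 on. MMP2 and TIMP2 therefore drew apart within the same libraries. The log2 ratio of MMP2 to TIMP2 on days 0, 3, 7, 13 and 21 was 0.77, 0.44, 0.67, 3.52 and 2.74. That of MMP14 to TIMP2 on days 0, 3, 5 and 21 was 1.17, 2.69, 3.37 and 2.28. As values are not divided by transcript length, only the change of such a ratio between days can be read, not its size. TIMP4, an inhibitor of narrow tissue distribution, had 28, 28, 18, 15, 3, 3, 8, 3, 0 and 3 over the 10 days and reached 50 on none.

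ADAM10 and ADAM17, the main shedding enzymes of the cell surface, were counted over no step. ADAM10, which starts Notch cleavage, had 312, 298, 415, 418, 746, 714, 582, 668, 497 and 497 over the 10 days. ADAM17, which releases TNF and EGF receptor ligands, had 74, 70, 106, 148, 185, 149, 111, 118, 102 and 114. Both were thus lowest at day 1 and highest at day 5, and neither differed by as much as 1 on the log2 scale over a media step. The log2 ratio of ADAM10 to ADAM17 stayed between 1.49 and 2.49. ADAM22 and ADAM23, which lack a working protease site and serve as adhesion molecules of neurons, were highest at day 0 (60 and 86) and lay between 15 and 56 afterwards.

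Of the 28 members counted over no step, 4 (TIMP4, ADAM8, ADAMTS4 and ADAMTS18) stayed below 50 on every day, 16 had a highest value of 50 to 200, 7 above 200 and up to 1000, and 1, ADAM9, above 1000. ADAM8 ranged from 0 to 36, ADAMTS4 from 4 to 47, ADAMTS18 from 0 to 49, ADAMTS16 from 9 to 60 and ADAMTSL3 from 26 to 90. ADAMTS7, which acts on the same cartilage protein as ADAMTS12, was highest at day 0 (320) and lay between 122 and 255 afterwards. ADAM15 was also highest at day 0 (105), was lowest at day 7 (34) and had 76 at day 21. MMP11 and MMP19, both secreted, stayed at or below 80 and 50. The intervals of ADAMTS4, ADAMTS7 and MMP24 also overlap a gene on the opposite strand. In all, 12 of the 45 members were listed at 0 on at least 1 day, against 843 of the 12125 genes of the table.

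Genes that act on these enzymes were followed as a list of 25, of which 23 were in the table. In the 4 steps, 2 of 13, 3 of 16, 3 of 17 and 4 of 17 tested were higher, and 0, 1, 1 and 0 were lower. The shares of all genes in the same steps were 3.94%, 5.63%, 3.08% and 2.28% higher and 2.16%, 4.41%, 2.46% and 1.62% lower. TFPI2, a serine protease inhibitor, had 16 at day 0 and 91 at day 3. In OSM, A2M, a protein of blood plasma that traps proteases of all classes, went from 120 to 4858, PLAT (tissue plasminogen activator) from 154 to 1490, PLG (plasminogen) from 62 to 358 and the proprotein convertase PCSK6 from 204 to 1088. A2M and PLG are also known products of hepatocytes. PLAU (urokinase) was at 246 at day 7 and 10 at day 13, and FURIN, which removes the propeptides of many ADAMs and of MMP14, lay between 149 and 733. RECK, a membrane-anchored inhibitor of MMPs, was at 24 to 32 up to day 3 and at 80 to 106 from day 5 on.

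Known substrates were followed as a list of 32, with 25 in the table. In the 4 steps, 4 of 17, 6 of 21, 4 of 20 and 0 of 21 tested were higher, and 0, 3, 0 and 1 were lower, beside the same shares of all genes (3.94%, 5.63%, 3.08% and 2.28% higher, and 2.16%, 4.41%, 2.46% and 1.62% lower). VCAN (versican), cut by ADAMTS1 and ADAMTS9, had 474 at day 3 and stood at the top of the scale (18734) at days 7, 9 and 11, with 3431 at day 21. FBN1 (fibrillin 1) had 54, 1214 and 3863 on days 7, 13 and 21, and COL1A1 had 1107, 3861 and 6494. CD44, which is shed by ADAM10 and MMP14, had 7, 52 and 902 on days 3, 7 and 13. The highest values of the table move between levels that the libraries share, so such values are read here as high only.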

How the data were processed

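Total RNA of H1 cells was sequenced on 10 days, with 1 library per day, assigned to days by the day label and to columns by sample title. The submitters' processing notes name Bowtie2 2.2.0 and RSEM 1.2.17. The authors aligned reads to an Ensembl transcriptome, which the methods call mm10 although the gene names are human, and the notes name hg19 too. They normalized for GC content with EDASeq, which makes libraries alike in distribution. The values the authors deposited are scores: whole numbers with nearly equal totals, not counts, so no count test was used. The methods give only an average depth over the samples, so the depth of each library is unknown. The build of the intervals is not given in the sources used here.

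Differences of log2(value + 1) between the ends of each medium were computed with Python 3.11.15, numpy 2.4.6 and pandas 2.3.3, and plots with matplotlib 3.10.9. Counting required a difference of 2 or more and a value of 50 or more on 1 of both days, and all 12125 genes gave the background. Counting was tested on simulated data. Members, marker lists and lists of regulators and substrates were chosen with earlier results of these data known. Values by day are given for the TIMPs, members counted in a step and ADAM10, ADAM17, MMP2, MMP14 and MMP15. Other members named by value in the text were chosen after their values were seen. Alternatives were other pseudocounts, scalings, minimum values and fold limits. Sequences are from RefSeq. Values of some single genes are left out.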

Additional observations from a re-analysis of the deposited data

How the results depend on the processing

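No paired analysis was possible because each day had 1 library. Pseudocounts of 0.1 and 5, median-of-ratios scaling, scaling to the mean total and leaving out the 6 members whose interval overlaps another gene of the table (the last chosen after seeing the data) left each of the 10 counts of members within 1.5 times its value. Median-of-ratios scaling moved the median difference of all genes from day 0 to day 21 from -0.12 to 0.06. The minimum value and the fold limit moved counts. Shares of all genes at these changed limits are not given here, so the counts that follow cannot be set against a background. With no minimum, 5 members were higher from day 0 to 3, 8 higher and 3 lower from day 3 to 7, 5 lower from day 7 to 13 and 5 higher from day 13 to 21. With a minimum of 200, 0 were lower from day 0 to 3, 3 higher from day 7 to 13, 0 higher from day 13 to 21 and 0 lower from day 0 to 21. With a log2 difference of at least 1, 4 were higher and 8 lower from day 0 to 3, 13 higher and 2 lower from day 7 to 13, 6 higher and 3 lower from day 13 to 21, and 7 lower from day 0 to 21. So the counts of the first and last steps rest on members under 200, apart from MMP14 and ADAM19. Of the 7 members higher from day 7 to 13, only ADAM33, MMP2 and TIMP3 reached 200. Of 68 differences of single members over steps, 9 moved beyond the spread between days 9 and 11 with a pseudocount of 0.1 and 12 with 5. These differences are those of the 17 members counted over a step. Under median-of-ratios scaling 2 differences near 0 changed sign, that of MMP2 from day 3 to 7 (-0.01 to 0.02) and that of ADAMTS12 from day 13 to 21 (-0.03 to 0.05), neither of them counted. Members at or near 0 on a day moved most: the difference of ADAM28 from day 13 to 21 was 10.16 with 0.1 and 4.57 with 5.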
